A study of Mus musculus with 4 samples.

Results

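Expression of 7 purinergic receptor genes was examined in RAW 264.7 cells, a mouse macrophage-like cell line that forms osteoclasts, the multinucleated cells that resorb bone, when given RANKL and the macrophage growth factor M-CSF. The members were the G protein-coupled nucleotide receptors P2ry2, P2ry6, P2ry12, P2ry13 and P2ry14 and the ATP-gated ion channels P2rx4 and P2rx7, out of 19938 genes named on the array. The set was selected on the stimulation difference of P2ry6, which was lower after RANKL and M-CSF with both vectors, so stimulation differences are given as a description without a test. The study compared 4 groups of 1 array each. Cells transfected with a control vector were unstimulated or had been differentiated for 72 h with RANKL and M-CSF. Cells transfected with a vector expressing the microRNA miR-155 were unstimulated or treated in the same way. The 72 h are listed for the stimulated cells only, so cytokine treatment cannot be told apart from time in culture. The share of each in the stimulation differences was not tested. The series text names 20 ng/ml, without making clear if that applies to both cytokines or to RANKL alone, and calls the control cells wild-type, whereas the sample descriptions give a control vector. All 4 groups come from this 1 cell line, and whether the transfected cells were a clone or a pool is not given in the sources used here.

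Extracellular nucleotides act on 2 receptor families. P2X receptors are cation channels opened by ATP, and P2Y receptors signal through G proteins after binding ATP, ADP, UTP, UDP or UDP-sugars. Macrophages use them to sense nucleotides from damaged or stressed cells, and in the osteoclast lineage they have been linked to fusion, survival and resorption. Ectoenzymes on the cell surface degrade the ligands to nucleosides, and adenosine has its own receptors.

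The agent that separates the vectors is miR-155. Its guide strand is shown because its seed, bases 2 to 8, in capitals, is what a microRNA uses to find its targets. The sequence is that of RefSeq, build GRCm38.p6, plus strand of chr16:84714143-84714165.
mmu-miR-155-5p: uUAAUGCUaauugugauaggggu
The assay reads longer transcripts and not the mature microRNA, and the action of the vector was not checked here. Sequences of the receptors' 3′ untranslated regions were not used here, and no target site was searched for.

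Values are on the log2 scale after RMA, the usual summary of Affymetrix arrays, and each member had 1 probe set. A floor of 4.25 was set at the 95th percentile of 1210 olfactory and vomeronasal receptor probe sets, which serve as a reference for genes not expressed in these cells, and 13545 genes exceeded it on at least 1 array. The same probe sets gave a noise reference for each comparison, the absolute log2 difference below which 95% of them lay: 0.48 for stimulation with the control vector, 0.41 with the miR-155 vector, 0.37 for the vectors without stimulation and 0.47 with it. This reference holds the scatter of probe sets without signal, not the spread of expressed genes between replicate cultures. With 1 array per group there is no replicate check of any difference, and precision is limited by how few arrays there are. The stimulated control array stood apart from the others, with Pearson correlations across genes of 0.908 to 0.937 against 0.982 to 0.989 among the other 3 arrays. It enters the stimulation difference with the control vector and the vector difference after stimulation, and neither can be had without it. The vector difference after stimulation also shares an array with each of the stimulation comparisons. The labelled cell type was checked against its markers: 10 of 12 macrophage markers exceeded the floor on every array, while Mrc1 and Mertk did not on any. Of the other cell types, at least 1 listed marker lay below the floor on every array for platelets (Ppbp), microglia (Siglech and Fcrls) and T and B cells (Cd3d, Cd4, Cd79a and Ms4a1), and the fibroblast gene Dcn exceeded it on the stimulated control array alone. In all, 3 to 4 of 5 platelet, 2 to 3 of 5 microglia, 2 of 6 T and B cell and 5 to 6 of 6 fibroblast and osteoblast markers exceeded the floor per array. The log2 of their summed linear levels lay between 6.54 and 7.63 and differed by less than 0.37 between arrays for each of the 4 lists.

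The 7 receptors fell into those with signal on every array and those with none. P2ry6, P2ry2, P2rx4 and P2rx7 exceeded the floor on all 4 arrays, so that none of them passed through a single group. P2ry12, P2ry13 and P2ry14 lay below the floor on all 4, as the plot of levels by array shows. No level of one probe set is set against that of another, because probe sets differ in affinity.

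**Figure D1:**
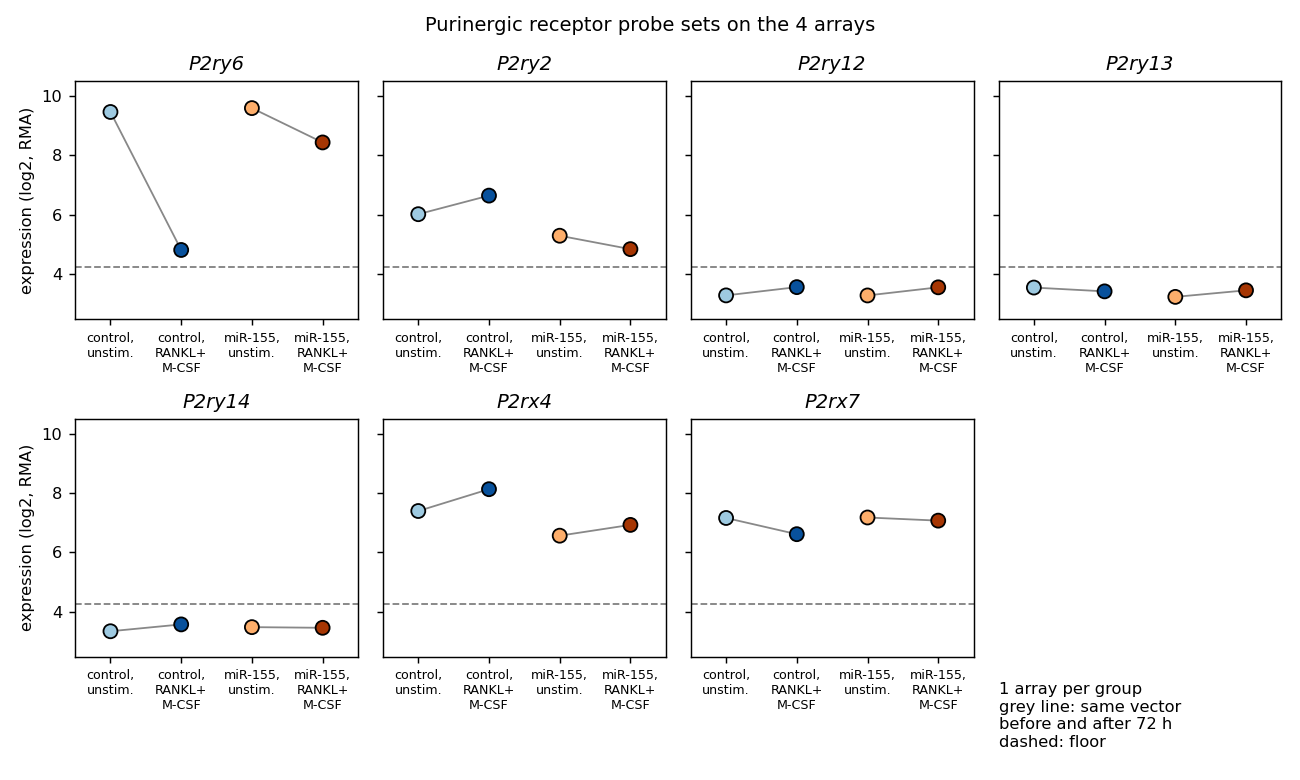
Log2 expression (vertical axis) of the 7 receptor genes on the 4 arrays (horizontal axis), 1 point per array, with a grey line joining the arrays of a vector and a dashed line at the floor of 4.25. P2ry6 drops from 9.46 to 4.82 with the control vector and from 9.59 to 8.43 with the miR-155 vector, while P2ry12, P2ry13 and P2ry14 stay below the floor.

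P2ry6 encodes the receptor for UDP, which couples to Gq and is known in macrophages and microglia for promoting phagocytosis and chemokine release. Its log2 level was 9.46 in unstimulated control cells, 4.82 in stimulated control cells, 9.59 in unstimulated miR-155 cells and 8.43 in stimulated miR-155 cells. The stimulated control array was the low one, only 0.57 above the floor, and the stimulated miR-155 array lay between it and the unstimulated pair, which differed by 0.13, within the noise reference. Stimulation thus came with a difference of -4.64 with the control vector, a 25.0-fold lower level, and of -1.15, or 2.23-fold lower, with the miR-155 vector. Among genes above the floor, 7 had a lower difference than P2ry6 with the control vector and 8 with the miR-155 vector. These values chose the set. The 2 stimulation comparisons share no array, and 217 genes, or 1.6% of those above the floor, were at least 1.5-fold lower in both.

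After stimulation the level of P2ry6 was 12.3-fold higher in miR-155 than in control cells (log2 difference 3.62), and 11 genes had a higher difference. This comparison uses the stimulated arrays that chose the gene and is a description as well. The fall with stimulation was smaller with the miR-155 vector. The response with it minus that with the control vector was 3.49 on the log2 scale, and 25 genes had a higher value. In bulk RNA, fewer cells with a transcript and less transcript per cell cannot be told apart.

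The 5 genes whose profile over the 4 arrays was nearest to that of P2ry6 were C5ar1, Pld4, Lsp1, Cd14 and Ms4a6b. Nearness was the Euclidean distance of the log2 values after subtracting each gene's mean, ranked over 13544 genes. C5ar1, the receptor for the complement fragment C5a, was nearest at 0.36, with levels of 8.28, 3.63, 8.01 and 6.96 in the order given for P2ry6. Its level in stimulated control cells lay below the floor, so it was at least 16.4-fold lower there than in unstimulated control cells. Pld4 (0.64), an endolysosomal nuclease, Lsp1 (0.65), a leukocyte actin-binding protein, Cd14 (0.66), the lipopolysaccharide co-receptor, and Ms4a6b (0.68), a membrane protein of the MS4A family, followed. Ms4a6b was also below the floor in stimulated control cells (3.57), at least 10.4-fold lower than in unstimulated ones, so the distances of C5ar1 and Ms4a6b rest in part on values with no order below the floor. In all 5, as in P2ry6, the stimulated control array was lowest and the stimulated miR-155 array next. The order of the unstimulated arrays was that of P2ry6 in Lsp1 and Cd14 and the reverse in C5ar1, Pld4 and Ms4a6b. Stimulation differences in miR-155 cells, -1.15 for P2ry6, were closest to it in C5ar1 (-1.05) and Lsp1 (-0.86). They were smaller in Pld4 (-0.53), Ms4a6b (-0.45) and Cd14 (-0.42). With the control vector, where P2ry6 stood at -4.64, Cd14 stood at -4.06, Pld4 at -4.04 and Lsp1 at -3.78. For C5ar1 and Ms4a6b only the bounds above are given there.

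**Figure D2:**
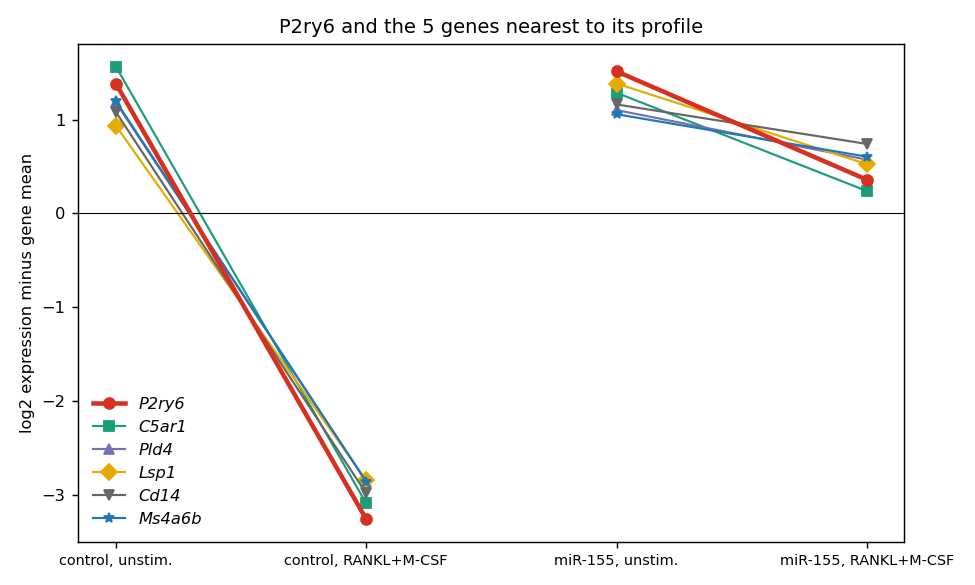
Log2 expression minus each gene's mean over the 4 arrays (vertical axis) for P2ry6, in red, and the 5 genes nearest to it, on each array (horizontal axis), with lines joining the arrays of a vector. All 6 genes are lowest on the stimulated control array, and C5ar1 lies at a distance of 0.36 from P2ry6.

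Most macrophage markers were, like P2ry6, lower on the stimulated control array. Of the 10 above the floor, 8 were at least 1.5-fold lower there than in unstimulated control cells, with a median of -3.70. With the miR-155 vector none was (median -0.29). Over all genes above the floor the shares were 15.2% and 3.74%. Cd68 (0.29) and Csf1r (-0.36) did not pass 1.5-fold in control cells. The summed level of the macrophage markers, as log2 of the summed linear values, was 15.0 and 15.0 in the unstimulated cells, 13.5 in stimulated control and 14.8 in stimulated miR-155 cells. All 10 osteoclast markers were at least 1.5-fold higher in stimulated control cells (median 5.57) and 9 of 10 in stimulated miR-155 cells (median 3.30), against 12.4% and 3.43% of all genes above the floor. The part of this shift in the P2ry6 values was not tested.

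P2ry2 and P2rx4 had the other pattern among the receptors with signal: lower levels with the miR-155 vector in both states. P2ry2 encodes a receptor for ATP and UTP that couples to Gq and is known as a sensor of find-me signals from dying cells. Its level was 6.02 in unstimulated control cells, 6.65 in stimulated control cells, 5.30 in unstimulated miR-155 cells and 4.85 in stimulated miR-155 cells. Both control arrays lay above both miR-155 arrays. Without stimulation it was 1.65-fold lower with the miR-155 vector (-0.72), a difference past the noise reference, and 215 genes were lower still. After stimulation it was 3.48-fold lower (-1.80), with 134 genes lower, and the stimulated miR-155 level lay only 0.60 above the floor.

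P2rx4 encodes an ATP-gated cation channel that resides largely in lysosomes and reaches the cell surface by exocytosis. Its level was 7.39 in unstimulated control cells, 8.13 in stimulated control cells, 6.56 in unstimulated miR-155 cells and 6.93 in stimulated miR-155 cells. Again both control arrays lay above both miR-155 arrays. The vector difference was -0.83, or 1.78-fold lower, without stimulation, with 134 genes lower, and -1.20, or 2.30-fold lower, after it, with 467 genes lower.

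P2rx7 encodes the ATP-gated channel that at high ATP triggers potassium efflux and inflammasome assembly. Its level was 7.16 in unstimulated control cells, 6.61 in stimulated control cells, 7.18 in unstimulated miR-155 cells and 7.07 in stimulated miR-155 cells. The whole range was 0.56, and the stimulated control array was the low one. The vector differences were 0.02 without stimulation and 0.46 after it, both within the noise reference.

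Counted at 1.5-fold, 2 of the 4 receptors above the floor were lower with the miR-155 vector without stimulation, P2ry2 and P2rx4, and none was higher, against backgrounds of 3.15% lower and 1.18% higher among all genes above the floor. After stimulation 2 of 4 were lower, the same receptors, and 1 was higher, P2ry6, against 13.6% and 12.4%. These comparisons share no array, and 1.22% of genes were lower in both. The median difference of the 4 receptors was -0.35 without stimulation and -0.37 after it, beside medians of -0.00 and -0.03 over all genes above the floor.

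An additive limma model with vector and stimulation as terms was fitted to all 13545 genes over the 4 arrays, and only its vector term was read. Its single residual degree of freedom is the disagreement of the vector difference between the states, not the spread of replicate cultures. After Benjamini-Hochberg adjustment limma called no gene higher or lower with the miR-155 vector (0%), and 523 genes had an unadjusted p under 0.05. P2rx4 was lower by -1.02 (SE 0.21) with an unadjusted p of 0.00873, and P2ry2 by -1.26 (SE 0.33) with 0.0183 by limma, each lower in both states. Their adjusted p was 0.890, and for P2rx7 (0.24, SE 0.22) it was 0.907 by limma. None of these 3 receptors passed the test across all genes. P2ry6 is not tested, since values on these arrays chose it.

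**Figure D3:**
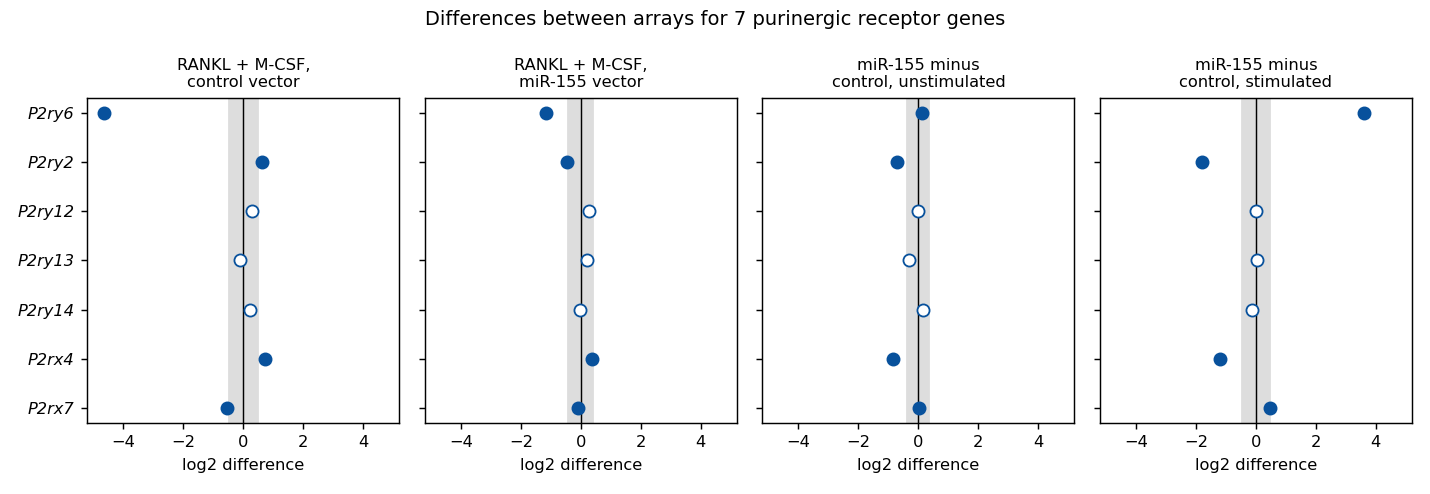
Log2 differences (horizontal axis) of the 7 receptor genes (vertical axis) in the 4 comparisons, 1 point per gene, filled where the gene exceeded the floor and open where it did not, with the noise reference in grey. P2ry2 (-0.72 and -1.80) and P2rx4 (-0.83 and -1.20) lie left of the grey band in both vector comparisons, and P2ry6 lies far left with stimulation of control cells (-4.64) and far right between the stimulated arrays (3.62).

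The stimulation differences of the other receptors were small beside that of P2ry6. Among these receptors only P2ry2 had responses that differed between the vectors past the noise reference. With the control vector P2rx4 was 1.66-fold higher (0.73) and P2ry2 1.54-fold higher (0.62), both past the noise reference, and P2rx7 was 1.46-fold lower (-0.55), also past it but short of 1.5-fold. With the miR-155 vector P2rx4 stood at 0.36 and P2rx7 at -0.11, within the noise reference, whereas P2ry2 was lower at -0.45, just past it. P2ry2 thus went in opposite directions in the 2 vectors. The count at 1.5-fold was 2 higher and 1 lower of 4 with the control vector, where 12.4% of all genes were higher and 15.2% lower. With the miR-155 vector it was 0 higher and 1 lower, where the shares were 3.43% and 3.74%. The median over the 4 receptors was 0.04 with the control vector and -0.28 with the miR-155 vector, beside -0.02 and -0.03 over all genes above the floor. The difference of the responses was past 1.5-fold upward for P2ry6 and downward for P2ry2 (-1.08), against 14.5% and 13.9% of genes. It stood at 0.44 for P2rx7 and -0.37 for P2rx4, both within the noise reference of 0.64 for this quantity.

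**Figure D4:**
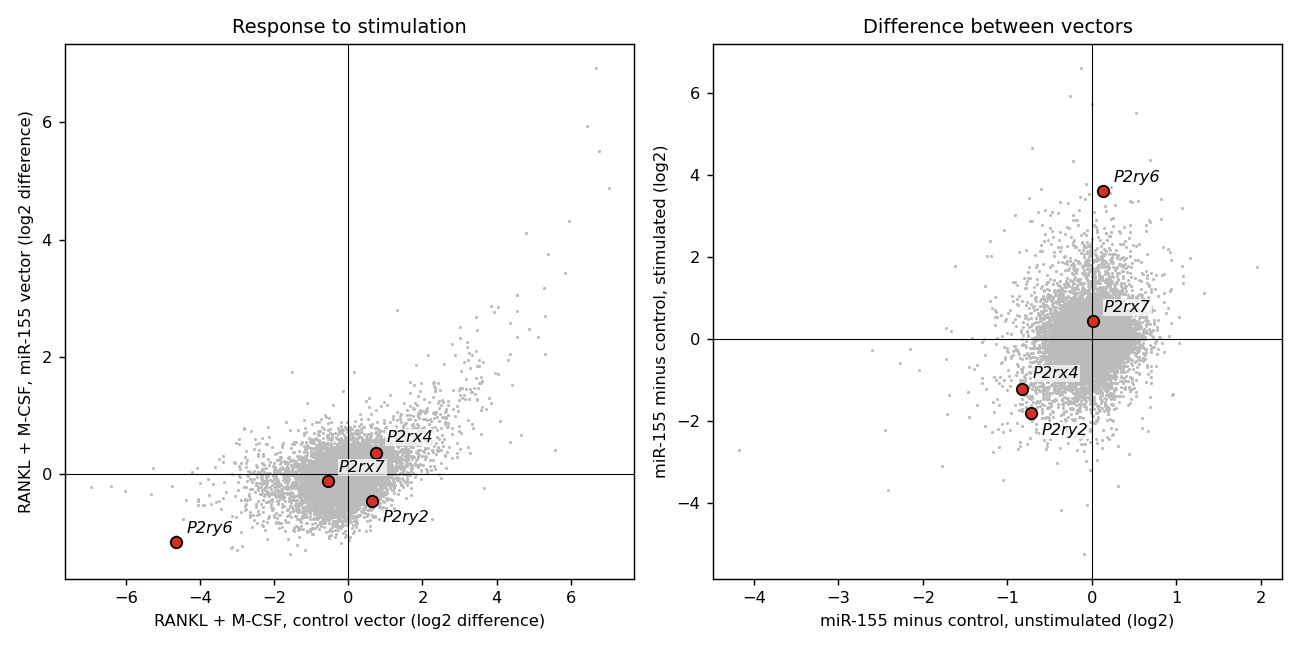
Differences of the 13545 genes above the floor (grey points) and of the 4 receptors among them (red), in log2 units. The left panel sets stimulation with the control vector (horizontal) against stimulation with the miR-155 vector (vertical), with P2ry6 at -4.64 and -1.15; the right panel sets the vector difference without stimulation (horizontal) against that with it (vertical), with P2ry2 and P2rx4 in the lower left quadrant.

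P2ry2 and P2rx4 lay at a distance of 0.63 from each other over the 4 arrays, although stimulation of miR-155 cells came with opposite signs (-0.45 and 0.36), and the other pairs among the 4 receptors were 1.58 to 4.89 apart. The genes nearest to P2ry2 were Fabp5 (0.11), a fatty acid-binding protein, and Tbc1d2 (0.14), a GTPase-activating protein for Rab7. Nearest to P2rx4 were Basp1 (0.12), a membrane-attached signalling protein, and Tmem154 (0.12). For P2rx7 they were Wdfy4 (0.02), which takes part in cross-presentation by dendritic cells, and Zfp277 (0.03).

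Because P2ry2 and P2rx4 were both lower with the miR-155 vector in both states, the 250 bases before an annotated transcription start of each are shown. They come from RefSeq, build GRCm38.p6: for P2ry2 the minus strand of chr7:101012054-101012303, the first of its 2 annotated starts, and for P2rx4 the plus strand of chr5:122707294-122707543. The end of the P2rx4 window lies inside the span of the gene, which begins at chr5:122707518. Capitals would mark matches, on either strand, to the letters TGANTCA (AP-1), GAGGAA (PU.1), GGAAA (NFAT) or CACGTG (the E-box of the lysosomal CLEAR element).
P2ry2: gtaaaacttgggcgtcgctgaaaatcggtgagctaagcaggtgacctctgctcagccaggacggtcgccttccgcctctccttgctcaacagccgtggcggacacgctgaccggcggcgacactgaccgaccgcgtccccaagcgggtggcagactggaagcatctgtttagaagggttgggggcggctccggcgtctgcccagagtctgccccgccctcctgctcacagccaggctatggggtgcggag
P2rx4: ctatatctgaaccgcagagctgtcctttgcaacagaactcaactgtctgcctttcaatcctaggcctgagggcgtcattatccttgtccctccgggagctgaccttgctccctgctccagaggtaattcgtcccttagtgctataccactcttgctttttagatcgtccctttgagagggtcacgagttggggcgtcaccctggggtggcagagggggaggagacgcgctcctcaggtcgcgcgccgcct
Neither window holds any of the 4. Of 32851 such windows, 6.75% hold the AP-1 letters, 23.3% those of PU.1, 55.6% those of NFAT and 6.02% the E-box, and the NFAT and PU.1 letters can overlap. The window of the second P2ry2 start holds 1 E-box. The first P2rx7 window holds 1 AP-1 and 1 NFAT match and the second none. In the receptors below the floor, P2ry12 has 2 NFAT matches and 1 E-box, P2ry13 has 1 PU.1 and 2 NFAT matches, and the first of 4 P2ry14 windows has 1 AP-1 and 1 PU.1 match. No window was available for P2ry6, so none was searched. A match or its absence says only whether these letters are in the window.

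P2ry12, P2ry13 and P2ry14 form the Gi-coupled branch of the family. P2ry12 encodes the ADP receptor of platelets and microglia, P2ry13 another ADP receptor and P2ry14 the receptor for UDP-glucose and other UDP-sugars. The level of P2ry12 was 3.29 and 3.57 in unstimulated and stimulated control cells and 3.29 and 3.56 in the corresponding miR-155 cells. For P2ry13 the values were 3.55, 3.43, 3.24 and 3.46 in that order. For P2ry14 they were 3.35, 3.58, 3.49 and 3.47. None of these 12 values reached the floor, their differences all lay within the noise reference, and no fold is given. In the mouse genome (GRCm38.p6) these genes lie close together on chromosome 3, P2ry14 at chr3:59114623-59153492, P2ry13 at chr3:59207892-59210882 and P2ry12 at chr3:59216271-59262985. All 3 lie inside the span of Med12l (chr3:59005419-59318446), and Gpr171, next to P2ry14, was below the floor on all arrays too. Med12l had levels of 4.27, 4.33, 4.28 and 4.12 in the same order of groups, next to the floor and under it only in stimulated miR-155 cells.

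Among the 9 other P2 receptors 4 exceeded the floor. P2ry10b, a lysophospholipid receptor relative, had levels of 6.33, 7.15, 5.64 and 6.39 in unstimulated control, stimulated control, unstimulated miR-155 and stimulated miR-155 cells. It was lower with the miR-155 vector in both states (-0.69 and -0.76), like P2ry2 and P2rx4, and higher with stimulation for both vectors (0.82 and 0.76). P2rx5, an ATP-gated channel, was lower with the miR-155 vector after stimulation (-0.81) and stood at -0.21 without it. P2rx6 and P2ry1 stood between -0.25 and 0.17 in the 4 comparisons, P2ry1 at levels of 4.15 to 4.40, next to the floor. P2rx1, P2rx2, P2rx3, P2ry4 and P2ry10 lay below it on all arrays. Counted at 1.5-fold, 1 of 4 was lower with the miR-155 vector without stimulation and 2 after it, where 3.15% and 13.6% of all genes above the floor were. With stimulation 1 was higher for each vector, against 12.4% of genes in control and 3.43% in miR-155 cells. The median of the 4 was 0.30 and -0.01 with stimulation of control and miR-155 cells, and -0.08 and -0.49 for the vector difference without and with stimulation.

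Some relatives of P2Y receptors for lipid mediators were, like P2ry6, lower with stimulation of control cells. Of 12 listed, 10 were matched and 5 exceeded the floor. In control cells 3 of 5 were at least 1.5-fold lower with stimulation, against 15.2% of all genes above the floor: Cysltr1, the cysteinyl leukotriene receptor (-2.95), Ptafr, the receptor for platelet-activating factor (-1.86), and Lpar6, a lysophosphatidic acid receptor (-1.77). Gpr17 and Gpr35 stood at 0.20 and 0.16 in the same comparison. With the miR-155 vector, where P2ry6 stood at -1.15, none passed 1.5-fold. Cysltr1 stood at 0.53, past the noise reference, Lpar6 at -0.04 and Ptafr at -0.21. Ptafr was lower in miR-155 cells without stimulation (-1.12). The list medians, in the order given for the other P2 receptors, were -1.77, -0.14, -0.39 and 0.54.

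Most genes on the list of ectonucleotidases and adenosine enzymes showed small differences. Signal near the floor limits Entpd1 (3.90 to 4.37), Entpd2 (4.45 to 4.89) and Entpd3 (4.10 to 4.94). Of 18 genes listed for ectonucleotidases and adenosine enzymes, 16 were matched and 12 exceeded the floor, while Nt5e, the CD73 enzyme that makes adenosine from AMP, lay below it on all arrays. With the control vector 2 of the 12 were higher and 1 lower, near the 12.4% and 15.2% of all genes above the floor. They were the ectonucleotidase Entpd3 (0.62), the intracellular Entpd7 (0.59) and, lower, adenosine kinase, Adk (-0.67). With the miR-155 vector none passed 1.5-fold, and without stimulation none differed by that much between the vectors. After stimulation Adk was higher in miR-155 cells (0.92) and Entpd7 lower (-0.82), as was Entpd3, whose level lay below the floor there and which was at least 1.61-fold lower. The list medians were -0.07, -0.00, 0.01 and 0.08 in the same order. The 4 adenosine receptor genes were not matched and are not analysed here.

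Among 14 genes above the floor for nucleotide release and nucleoside transport, 2 were higher and 5 lower with stimulation of control cells, and 1 was higher and 1 lower in miR-155 cells. Over all genes above the floor the shares were 12.4% and 15.2% in control and 3.43% and 3.74% in miR-155 cells. Ank, a transporter tied to ATP and pyrophosphate export, was higher in both (2.31 and 1.06). Panx1, the pannexin channel that releases ATP, stood at -0.31 with the control vector and was lower with the miR-155 vector (-0.69). Slc35d1, which carries UDP-sugars into the endoplasmic reticulum, was lower in control cells (-1.19) and stood at -0.43 in miR-155 cells. Gja1, a gap junction protein, was below the floor in stimulated control cells and at 5.97 in stimulated miR-155 cells, at least 3.30-fold higher, and it was also higher in miR-155 cells without stimulation (1.16). The medians in the same order were -0.01, -0.26, 0.10 and -0.16.

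Of 19 signal transduction genes downstream of P2Y receptors above the floor, 4 were higher and 5 lower with stimulation of control cells, where 12.4% of all genes were higher and 15.2% lower. In miR-155 cells 3 were higher and 5 lower by their measured values, against 3.43% and 3.74%. Rgs1 is among those 3, but its unstimulated level lay below the floor and its bound, 0.58, is short of 1.5-fold. The 5 lower in miR-155 cells were Gna12 (-0.87), Arrb2 (-0.76), Gna15 (-0.68), Gnai2 (-0.66) and Gna11 (-0.64), all but Arrb2 G protein subunits. In control cells they stood at -0.17, -1.34, -1.17, -0.49 and -0.54 in that order. Gnaq, the G protein subunit through which P2Y2 and P2Y6 act, stood between -0.27 and 0.15 in the 4 comparisons. Its effector Plcb4, a phospholipase C, was higher with stimulation for both vectors (1.89 and 0.96), as were Rgs1, which shortens G protein signals (2.44 and at least 0.58), and Grk3, a receptor kinase (2.44 and 0.60). Pik3cg, the lipid kinase activated by G protein subunits, was lower in control cells (-2.09) and stood at -0.51 in miR-155 cells. Without stimulation Rgs2 was lower with the miR-155 vector (-0.97) and Rgs1 at least 1.70-fold lower, while Gna15, the promiscuous G protein subunit of blood cells, was higher (0.59). The list medians were -0.03, -0.08, -0.13 and -0.27 in the same order.

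The P2X7 and inflammasome list had 10 of 12 genes above the floor. With stimulation of control cells 1 was higher and 4 lower, and in miR-155 cells 0 and 1, against 12.4% higher and 15.2% lower and 3.43% and 3.74% of all genes above the floor. Pla2g4a, the phospholipase that frees arachidonic acid, was lower in control cells (-2.33) and stood at -0.07 in miR-155 cells. Txnip, which binds NLRP3, had differences of -1.95 and 0.08. Casp1, the protease that activates interleukin 1, was lower in control cells (-1.02) and stood at 0.45 in miR-155 cells, past the noise reference there. Casp4, the caspase of the noncanonical inflammasome, was higher in control cells (1.17). The sensor gene Nlrp3 stood between -0.27 and 0.14 in the 4 comparisons, and Pycard and Il1b lay below the floor on every array. Il18 was higher with the miR-155 vector in both states (0.72 and 1.48). The medians in the same order were -0.44, -0.12, -0.15 and 0.21.

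**Figure D5:**
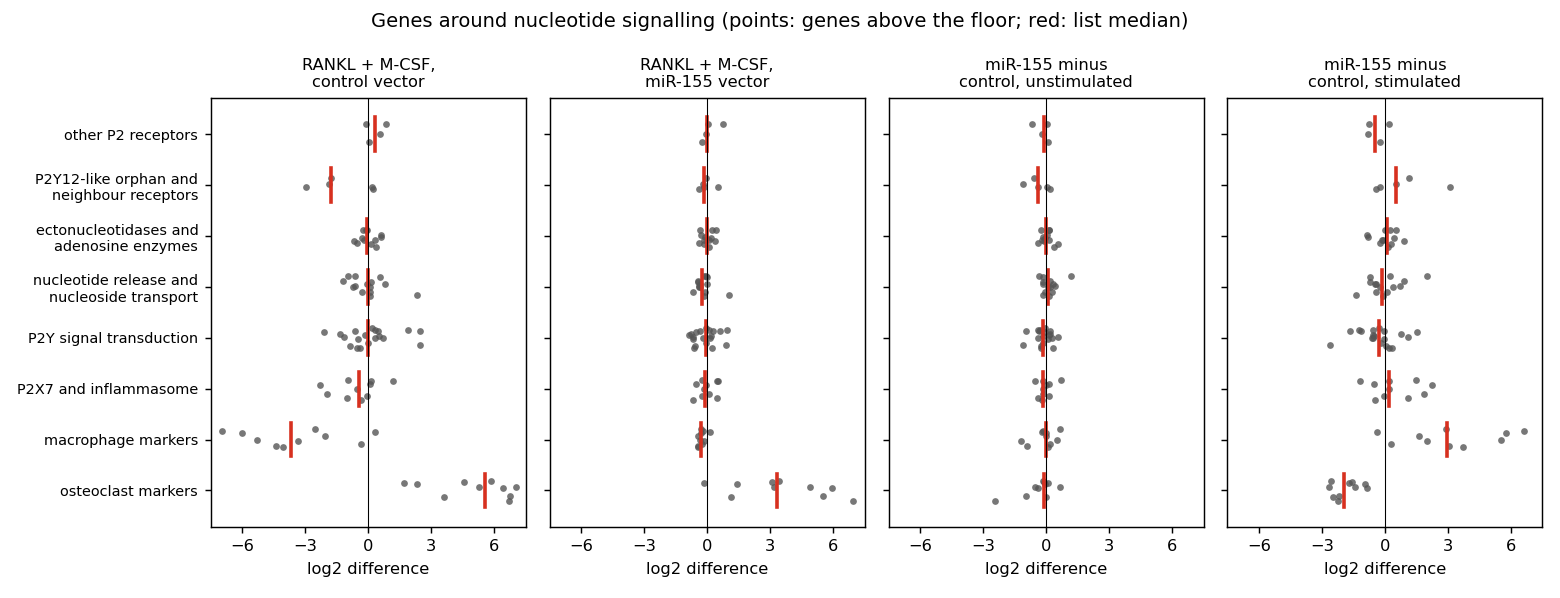
Log2 differences (horizontal axis) of genes above the floor in 8 lists (vertical axis) for the 4 comparisons, 1 point per gene, with the list median in red. Macrophage markers lie to the left with stimulation of control cells (median -3.70) and osteoclast markers to the right (5.57), while the ectonucleotidase list has medians between -0.07 and 0.08 in all 4 panels.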

How the data were processed

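RNA from 4 cultures (100 ng of total RNA each, extracted with RNeasy) was labelled with biotin and hybridised to Affymetrix Mouse 1.0 ST arrays, according to the labels. The deposited values are log2 expression values that the authors made with RMA, which corrects background, normalizes by quantiles and summarizes probes, in Partek, per the submitters' processing notes. Neither versions nor a build were given there. Quantile normalization hides a change in total RNA per cell. Arrays give no read depth. Array medians lay between 4.58 and 4.62.

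The platform annotation gave 1 symbol for 21789 of 35557 probe sets, several for 1621 and none for 12147. Of the first, 21698 had their gene ID in a RefSeq table (GRCm38.p6), with 0 changed symbols. The probe set with the highest mean represented each gene. Coordinates and sequences are RefSeq's, not the probe sets'. Groups follow sample titles. Differences of log2 values between arrays were counted past 1.5-fold, and a gene with the dimmer of both values under the floor gets a bound, its brighter value against the floor. limma 3.58.1 (R 4.3.3; lmFit, eBayes) used a Benjamini-Hochberg threshold of 0.05. The step was tested on simulated data. Python 3.11.15, numpy 2.4.6, pandas 2.3.3 and matplotlib 3.10.9 were used.

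The members and lists were chosen with earlier results of these data known. Besides the members, the text names up to 3 genes per list with the largest difference in each comparison, genes of the lists that stayed under 1.5-fold or below the floor, and the 5 nearest genes to P2ry6 and 2 to each other receptor. It also names the 5 signal transduction genes that were lower with stimulation of miR-155 cells. Alternatives were no floor, values raised to the floor, arrays centred on their median, renewed quantile normalization, the mean of a gene's probe sets, a 2-fold threshold and an intensity trend in limma.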

Additional observations from a re-analysis of the deposited data

Results flagged for a closer look

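P2ry2, the receptor for ATP and UTP, had stimulation differences of opposite sign in the vectors, each past the noise reference of its comparison: 0.62 with the control vector and -0.45 with the miR-155 vector. The response with the miR-155 vector minus that with the control vector was -1.08 on the log2 scale, beyond the reference of 0.64 that 95% of the olfactory and vomeronasal receptor probe sets gave for this quantity. Each value is the difference of 1 array from 1 other, so the difference was not tested. The level of P2ry2 in stimulated miR-155 cells, which enters it, lay only 0.60 above the floor. Under renewed quantile normalization it was -1.21.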

How the results depend on the processing

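All differences of the 7 receptors were recomputed without a floor, with values raised to the floor, with centred arrays, with renewed quantile normalization, with the mean of probe sets and with a 2-fold threshold. None that was past 1.5-fold changed sign. Leaving out the floor, taking the mean of probe sets and the 2-fold threshold could not move any of these differences. Each receptor has 1 probe set, and neither the absence of a floor nor the threshold enters the values. Renewed quantile normalization moved values by at most 0.15 and centring by at most 0.04, and raising values to the floor moved only the 3 receptors below it, by up to 0.35. Counting past 2-fold instead of 1.5-fold left 0 receptors higher with stimulation of control cells, and 0 lower with the miR-155 vector without stimulation, since P2ry2 and P2rx4 lie between the thresholds; the other counts of receptors were the same or within 1.5 times. limma called 0 genes in each of 5 alternatives as well, with lowest adjusted p-values of 0.889 to 0.944 and 537 to 786 genes at an unadjusted p under 0.05. No paired analysis was possible because each group has 1 array, and leaving out an array leaves a group empty. Signal near the floor limits P2ry6 in stimulated control cells, whose level lay 0.57 above it, and P2ry2 in stimulated miR-155 cells, at 0.60 above it.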

Other observations

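The receptors with signal sit in pairs on the genome. P2ry6 (chr7:100937630-100975498, GRCm38.p6) and P2ry2 (chr7:100996568-101012053) are neighbours with 21069 bases between them. With stimulation of control cells the first stood at -4.64 and the second at 0.62, and between the stimulated arrays at 3.62 and -1.80. With stimulation of miR-155 cells both were lower (-1.15 and -0.45). The genes on either side of the pair, chosen here by position after values were seen, were Arhgef17 (0.30 with stimulation of control cells and 0.18 between the stimulated arrays) and Fchsd2 (0.50 and -0.58 in the same order).

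P2rx7 (chr5:122643927-122692336) and P2rx4 (chr5:122707518-122729739) lie 15181 bases apart. With the miR-155 vector P2rx4 was lower in both states (-0.83 and -1.20) and P2rx7 was not (0.02 and 0.46). The span of P2rx4 overlaps that of Camkk2, a calcium-dependent kinase gene, by 11360 bases. Camkk2 stood at 0.00 and 0.19 in the same comparisons, and with stimulation at -0.84 and -0.65 where P2rx4 stood at 0.73 and 0.36.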
